A study of Homo sapiens with 48 samples.

Results

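KYNU, the gene of kynureninase, was examined in PSN1 cells together with 9 other genes of the kynurenine pathway and of the aryl hydrocarbon receptor that senses its products. The 10 genes were IDO1, TDO2, AFMID, KYNU, KMO, HAAO and QPRT as pathway enzymes, AHR as the receptor, and AHRR and CYP1B1 as genes that the receptor switches on. They are 10 of the 20241 protein coding genes in the deposited RNAseq table. KYNU was chosen by its level in the TalaR-DF libraries, where its decrease from parental cells is among the largest of all genes, so its own differences are given as a description, with no test. The other 9 genes were taken by their place in the pathway. Of the 10 genes, 7 were above 1 CPM (reads scaled to the depth of the library) in at least 3 libraries and were tested among 12471 genes, while IDO1, KMO and HAAO did not pass this filter.

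PSN1 is a cell line of pancreatic ductal adenocarcinoma, grown here in RPMI1640 with fetal bovine serum. Parental cells were wild type and untreated. TalaR-M cells had acquired resistance to the PARP inhibitor Talazoparib and carried a label of 50 nM drug and 4 months. TalaR-DF cells were TalaR cells that had then been kept without drug for 4 weeks. Each group had 3 libraries, prepared as stranded poly(A) RNA, and nothing in the labels says that they came from separately selected cultures. The p-values therefore measure the spread between these libraries, which may be technical. Whether the resistant cells were 1 clone is not given in the sources used here.

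Values are log2 CPM, in which values under 0 were set to 0 by the authors, so that 0 stands for at most 1 CPM. The protein coding genes above 1 CPM held 8387755 to 14973847 reads per library, which leaves out all other reads. A 0 could hide at most 6.97 to 14.5 reads. TalaR-M replicate 2 had the fewest reads in these genes and stood apart from the rest. Of 10512 genes, 4858 (46.2%) were more than 2-fold away from the mean of the other TalaR-M libraries. This deviation ran from a median of 1.37 on the log2 scale in the tenth of genes with the shortest transcripts to -1.45 in the tenth with the longest, and the values that this library moved most are also given without it. Of 9 markers of epithelial and pancreatic cancer cells, 8 were above 1 CPM in all groups, while the defining pancreatic factor PDX1 was at 0 in all 9 libraries.

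The kynurenine pathway is the main route by which cells break down tryptophan. IDO1 or TDO2 opens the ring of tryptophan, AFMID removes the formyl group to give kynurenine, and KYNU cleaves kynurenine and its 3-hydroxylated form, which KMO makes. HAAO and QPRT then lead on to NAD, the substrate that PARP enzymes consume. Kynurenine that is not cleaved can bind AHR, a receptor that enters the nucleus, pairs with ARNT and activates genes such as CYP1B1 and AHRR, whose product represses the receptor in turn. In tumours the pathway is best known for the loss of tryptophan and the gain of kynurenine around T cells.

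The promoters of the 4 genes that differed most between the groups are shown first, since they are of contrasting kinds. The sequences are from RefSeq on build GRCh38.p14 and run 5′ to 3′ on the plus strand from 250 bases before to 50 bases after the start of the gene. Capitals mark the TATA box letters TATAAA and the core of the AHR response element GCGTG, each searched on both strands. The windows are KYNU chr2:142877414-142877713, TDO2 chr4:155903446-155903745, QPRT chr16:29678758-29679057 and AHRR chr5:321464-321763.
KYNU: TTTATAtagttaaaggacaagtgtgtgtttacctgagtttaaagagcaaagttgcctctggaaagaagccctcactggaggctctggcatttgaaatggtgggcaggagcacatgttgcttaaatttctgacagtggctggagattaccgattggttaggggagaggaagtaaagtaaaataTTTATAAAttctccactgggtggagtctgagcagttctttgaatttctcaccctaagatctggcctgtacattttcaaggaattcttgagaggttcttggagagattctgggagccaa
TDO2: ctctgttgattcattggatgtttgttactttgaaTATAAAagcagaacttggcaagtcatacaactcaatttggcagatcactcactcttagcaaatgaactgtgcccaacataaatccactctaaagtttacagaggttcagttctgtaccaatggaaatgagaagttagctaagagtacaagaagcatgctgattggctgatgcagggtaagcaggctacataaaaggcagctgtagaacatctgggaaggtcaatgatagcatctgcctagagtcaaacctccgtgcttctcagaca
QPRT: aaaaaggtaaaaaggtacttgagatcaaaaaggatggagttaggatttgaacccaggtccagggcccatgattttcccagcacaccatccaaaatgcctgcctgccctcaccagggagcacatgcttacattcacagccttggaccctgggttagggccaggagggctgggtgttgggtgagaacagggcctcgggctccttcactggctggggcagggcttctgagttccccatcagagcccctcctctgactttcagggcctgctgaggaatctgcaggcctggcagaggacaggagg
AHRR: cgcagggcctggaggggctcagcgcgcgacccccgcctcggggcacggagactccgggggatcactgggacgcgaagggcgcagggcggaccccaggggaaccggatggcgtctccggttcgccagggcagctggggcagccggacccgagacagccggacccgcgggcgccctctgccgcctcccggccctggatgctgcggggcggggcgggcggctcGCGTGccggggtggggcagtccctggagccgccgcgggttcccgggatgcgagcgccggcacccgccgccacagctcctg

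The promoters of KYNU, TDO2 and QPRT, the 3 enzymes lower in resistant cells, each held 1 CG dinucleotide, against a median of 14 over 35116 RefSeq windows of 300 bases. No more than 1 CG was present in 10.97% of all windows. The KYNU window held 3 matches to TATAAA, of which the pair nearer the start overlap, and the TDO2 window held 1 match. This motif occurred in 11.5% of all windows. The AHRR window was of the opposite kind, with 40 CG dinucleotides and 1 match to GCGTG, which also fits the longer form TNGCGTG. Of all windows, 36.5% held GCGTG and 5.51% the longer form. The second RefSeq window of AHRR held 26 CG dinucleotides and 2 GCGTG matches, and that of QPRT held 3 CG dinucleotides and no match to either motif. Among the other members, 1 CG dinucleotide was counted for KMO, 25 for AFMID, 30 for AHR and 37 for HAAO. AFMID and AHR held 1 GCGTG match each, and KMO and AFMID held 1 TATAAA match each. A match in these letters is a description of the window and not evidence of binding.

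KYNU RNA was nearly lost in both resistant populations. In parental cells KYNU stood at 6.51, 6.51 and 6.47 log2 CPM, from 1338, 1265 and 1172 reads. In TalaR-M cells it was 0.21 in replicate 1, from 17 reads, and 0 in replicates 2 and 3. In TalaR-DF cells it was 0.60, 1.13 and 0.14 log2 CPM, from 21, 29 and 13 reads. The parental libraries lay far above all 6 resistant libraries, whereas the TalaR-M and TalaR-DF libraries overlapped with each other.

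Parental cells had a mean KYNU level of 6.50 ± 0.02 log2 CPM (SD, n = 3), against 0.07 ± 0.12 with drug (TalaR-M) and 0.62 ± 0.49 after withdrawal (TalaR-DF). TalaR-M cells were thus at least 86.0-fold lower than parental cells, and TalaR-DF cells 58.6-fold lower. In unlogged terms TalaR-M cells kept at most 1.17% of the parental CPM and TalaR-DF cells 1.77%. The decrease from parental to TalaR-DF cells, -5.87 on the log2 scale, ranked as number 2 among the 12471 genes, between IL33 at -6.24 and MUC5B at -5.60. The decrease in TalaR-M cells, -6.43, ranked as number 6, between MUC5B at -6.84 and IL33 at -6.24. TalaR-M cells were 0.55 below TalaR-DF cells on the log2 scale, a difference close to the spread among the TalaR-DF libraries. Without TalaR-M replicate 2 the TalaR-M decrease was -6.39.

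**Figure D1:**
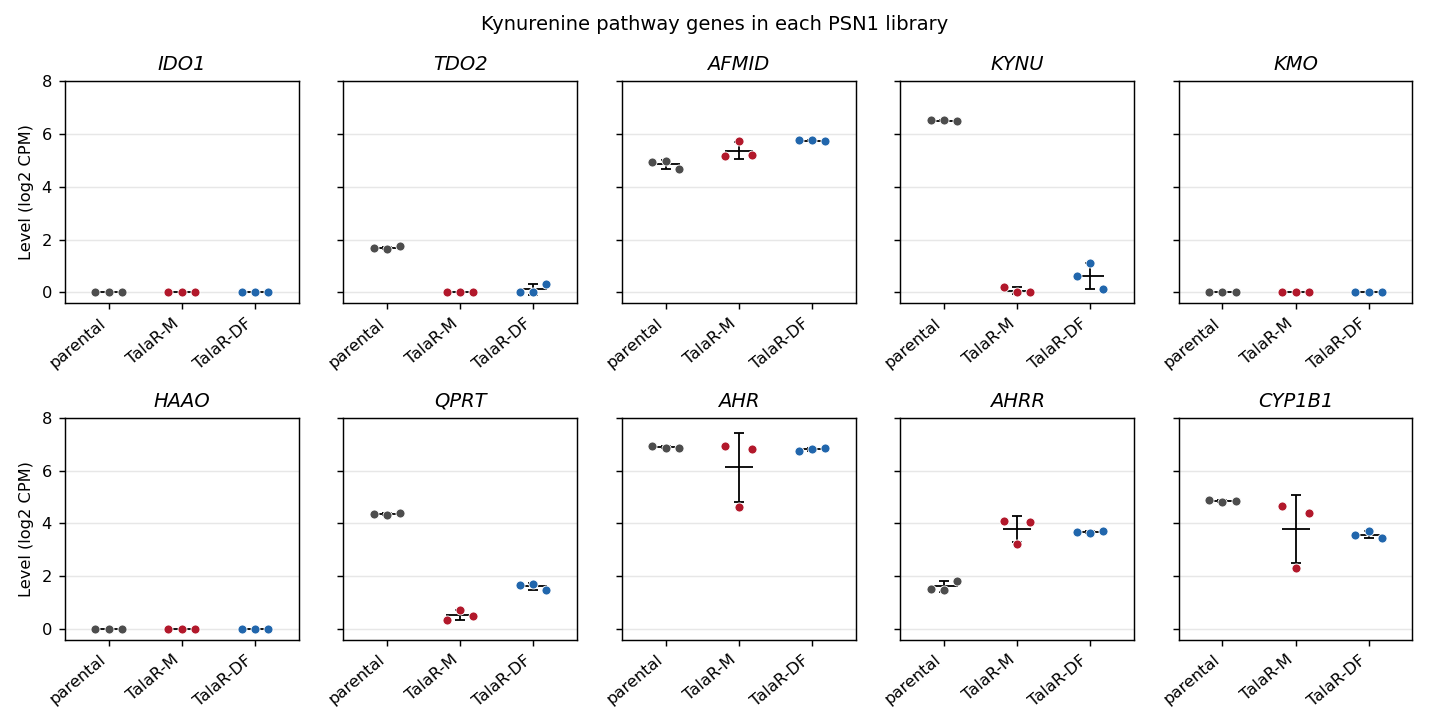
Level in log2 CPM (vertical axis) of each of the 10 genes in the 3 parental, 3 TalaR-M and 3 TalaR-DF libraries of PSN1, with 1 point per library and bars for the mean ± SD. KYNU, TDO2 and QPRT are highest in the parental libraries, AHRR is lowest there, IDO1 and KMO are at 0 throughout, and in AHR and CYP1B1 the low TalaR-M point is replicate 2.

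KYNU lies on chromosome 2 from 142877664 to 143055833 (GRCh38.p14). Its longest annotated transcript of 15151 bases and the next of 1772 bases differ by so much that a level per length could not be set against other genes. Per kilobase, the parental level would be 2.58 log2 CPM with the former and 5.67 with the latter. KYNU levels are therefore compared between groups only.

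The entry enzymes of the pathway gave little RNA in any group. IDO1, the interferon-inducible enzyme of this step, was at 0 in all 9 libraries. TDO2, the enzyme best known from liver, was at 1.68, 1.63 and 1.74 log2 CPM in parental cells, from 46, 42 and 43 reads. All 3 TalaR-M libraries were at 0, and the TalaR-DF libraries at 0, 0 and 0.33, the last from 15 reads. No resistant library reached the parental range. TDO2 was at least 3.21-fold lower in TalaR-M cells (log2 fold change -1.68) and at least 2.97-fold lower in TalaR-DF cells (-1.57). It could pass the filter on low values only with its high parental libraries, so these values are a description with no test. The parental level was only 3.21 CPM, so that they rest on few reads. With a pseudocount of 8 CPM the differences shrank to -0.49 and -0.42. IDO2, the other entry enzyme, was also at 0 in all 9 libraries, as was IL4I1, an oxidase that uses tryptophan outside this step.

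AFMID, which forms kynurenine, was present in all groups and did not fall. The parental libraries were at 4.94, 4.97 and 4.66 log2 CPM, the TalaR-M libraries at 5.18, 5.73 and 5.19 and the TalaR-DF libraries at 5.75, 5.76 and 5.73. Every resistant library was above the parental range, but the steps were small. AFMID was 1.86-fold higher in TalaR-DF cells (log2 fold change 0.89, SE 0.18, adjusted p = 0.0102), which is short of the 2-fold change required for a call. In TalaR-M cells the log2 fold change was 0.51 (95% CI 0.09 to 0.92, adjusted p = 0.0772), and 0.33 without replicate 2, which stood 0.55 above the other TalaR-M libraries. KMO, the hydroxylase of kynurenine, was at 0 in all 9 libraries. HAAO, the enzyme after KYNU on the way to NAD, was at 0 in 8 libraries and at the floor of 1 CPM in TalaR-M replicate 2, from 7 reads. At this depth their RNA was not detectable, which is not to say that it was absent.

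QPRT, which turns quinolinate into a precursor of NAD, fell in both resistant populations and was the member after KYNU with the largest decrease. Parental cells held 4.34, 4.33 and 4.39 log2 CPM of QPRT, from 297, 279 and 276 reads. TalaR-M cells held 0.36, 0.74 and 0.51, from 19, 12 and 19 reads. TalaR-DF cells held 1.66, 1.71 and 1.46, from 45, 44 and 34 reads. The 3 groups did not overlap, with TalaR-M cells lowest and TalaR-DF cells between TalaR-M and parental cells. QPRT was 14.1-fold lower in TalaR-M cells (log2 fold change -3.82, SE 0.15, adjusted p = 8.8e-07) and 6.69-fold lower in TalaR-DF cells (-2.74, SE 0.15, adjusted p = 6.8e-06). That left 7.13% and 14.99% of the parental CPM.

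QPRT was also the one member called between the resistant populations. TalaR-DF cells were 2.11-fold higher than TalaR-M cells (TalaR-M against TalaR-DF -1.08, SE 0.15, adjusted p = 0.00252). The difference is near the threshold of 1 on the log2 scale. It fell short with an added pseudocount of 1 CPM (-0.73), with median ratio scaling (-0.92) and without TalaR-M replicate 1 (-0.99), although its direction stayed.

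The receptor itself, AHR, held its level in 8 of the 9 libraries. Parental cells were at 6.95, 6.87 and 6.87 log2 CPM. TalaR-DF cells held 6.74, 6.82 and 6.85, and TalaR-M cells 6.91, 4.63 and 6.82. The low value belongs to TalaR-M replicate 2, and the other 8 libraries lay within 6.74 to 6.95. The log2 fold change was -0.09 in TalaR-DF cells (95% CI -1.31 to 1.14, adjusted p = 0.956). In TalaR-M cells it was -0.77 (95% CI -1.998 to 0.45, adjusted p = 0.311), and -0.03 without replicate 2. AHR has a transcript of 6243 bases, and genes of like length had a median deviation of -1.26 in replicate 2, against -2.24 for AHR.

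AHRR, the repressor of the receptor, was the member that rose. It was at 1.52, 1.49 and 1.83 log2 CPM in parental cells, from 41, 38 and 46 reads. TalaR-M cells had 4.09, 3.21 and 4.05, from 266, 69 and 232 reads, and TalaR-DF cells 3.68, 3.64 and 3.69. All 6 resistant libraries were above the parental range. AHRR was 4.50-fold higher in TalaR-M cells (log2 fold change 2.17, SE 0.25, adjusted p = 0.000428) and 4.17-fold higher in TalaR-DF cells (2.06, SE 0.25, adjusted p = 0.000711). Over all 9 libraries the difference between the resistant populations lay within their spread (0.11, 95% CI -0.46 to 0.68, adjusted p = 0.764). Without TalaR-M replicate 2, TalaR-M cells were 0.40 above TalaR-DF cells (adjusted p = 0.0265), short of 2-fold. The difference of TalaR-M from parental cells was then 2.46. AHRR shares its locus with the read-through gene PDCD6-AHRR, and how reads common to both were counted is not given in the sources used here.

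CYP1B1, a cytochrome that AHR switches on, went the other way. The parental libraries held 4.87, 4.80 and 4.84 log2 CPM, the TalaR-DF libraries 3.56, 3.69 and 3.43, and the TalaR-M libraries 4.65, 2.32 and 4.39. Both resistant groups lay below the parental range, with TalaR-M replicate 2 lowest by far. The log2 fold change in TalaR-DF cells was -1.27 (SE 0.53, 95% CI -2.50 to -0.05, adjusted p = 0.154), which was not called. That test shares its estimate of the spread with TalaR-M replicate 2, and without this library the same difference had an adjusted p of 6.28e-07 and was called. In TalaR-M cells the log2 fold change was -1.05 (95% CI -2.27 to 0.18, adjusted p = 0.187), and -0.31 without replicate 2. Between the resistant populations the difference was 0.22, and 0.96 without replicate 2.

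**Figure D2:**
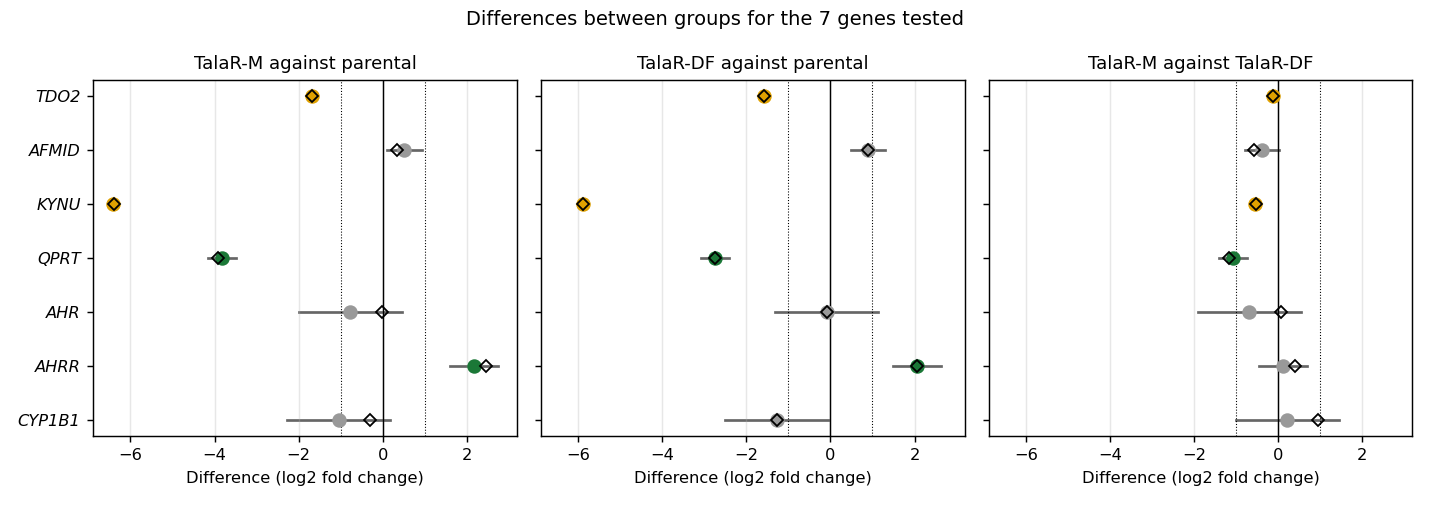
Log2 fold change (horizontal axis) of the 7 tested genes in 3 comparisons, from limma over 12471 genes. Filled circles are the values over 9 libraries with lines for 95% confidence intervals, green where called and grey where not, open diamonds are the values without TalaR-M replicate 2, dotted lines mark a 2-fold change, and KYNU and TDO2 (yellow) are a description with no interval. QPRT lies left of the dotted lines and AHRR right of them in both comparisons with parental cells, and AHR and CYP1B1 have the widest intervals.

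KYNU, chosen by its decrease, and TDO2, which reached the test only with its high parental libraries, are left out of the counts of calls. Of the other 8 members 5 were tested, and in TalaR-M cells AHRR was called higher, QPRT lower and 3 were not called. Of all genes tested, 13.3% were called in this comparison, 5.53% higher and 7.72% lower. The libraries of TalaR-M and parental cells did not overlap for 4 of the 5, and for 49.8% of all genes. In TalaR-DF cells again AHRR was higher and QPRT lower, where 9.73% of all genes were called, 2.25% higher and 7.49% lower. None of the 5 overlapped between TalaR-DF and parental libraries, and 68.5% of all genes did not. Both comparisons use the same parental libraries and are not independent of each other. Between TalaR-M and TalaR-DF cells, 0 of the 5 were called higher and QPRT lower, with 5.29% and 1.64% of all genes, or 6.93% in either direction. QPRT was the 1 member whose resistant libraries did not overlap, against 40.8% of all genes. For AFMID, AHRR and CYP1B1 the overlap came from TalaR-M replicate 2 alone, and the share of all genes without this library was not counted. The median log2 fold change of the 5 was -0.77 for TalaR-M cells, or -0.03 without replicate 2, and -0.09 for TalaR-DF cells, against -0.09 and 0.01 over all genes. Without TalaR-M replicate 2, CYP1B1 was added to the members called lower in TalaR-DF cells, where 8.63% of all genes were called lower.

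Few genes of the neighbouring steps could be tested, and none of them was called. Of 7 further enzymes, the kynurenine aminotransferases KYAT1, KYAT3 and GOT2 were tested, and 0 were called in any comparison. Of all genes, 13.3% were called in TalaR-M and 9.73% in TalaR-DF cells, and 6.93% between them. For 3 genes, 0 is near those shares. GOT2, which also serves the malate-aspartate shuttle, had log2 fold changes of 0.66 in TalaR-M cells (adjusted p = 0.00546) and 0.99 in TalaR-DF cells (adjusted p = 0.00078), just short of 2-fold. KYAT3 differed by -0.48 in TalaR-M cells (adjusted p = 0.0268). AADAT and ACMSD, which lead kynurenine and its products into side branches, were at 0 in all 9 libraries. The list's median was 0.29 in TalaR-M cells, 0.15 without replicate 2, and 0.37 in TalaR-DF cells.

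Among 10 genes of NAD synthesis and salvage, 9 were tested, and 1 rose and 1 fell in TalaR-M cells. Of all genes, 5.53% were called higher and 7.72% lower there, and 9.73% were called in TalaR-DF cells. NAPRT, the entry enzyme for nicotinic acid, rose from 1.37 ± 0.19 to 2.78 ± 0.81 log2 CPM (log2 fold change 1.41, adjusted p = 0.0417), a value that was 1.01 when TalaR-M replicate 2 was left out. NMNAT2, an NAD-forming enzyme known from neurons, fell by 1.61 (adjusted p = 0.00328). In TalaR-DF cells NMNAT2 fell by 2.26 (adjusted p = 0.000653), as the one called gene of the list there. NMRK1, which feeds nicotinamide riboside into the route, was 1.25 higher in TalaR-M than in TalaR-DF cells (adjusted p = 0.0258), and 0.92 without replicate 2, which is no longer called. It was the 1 gene of the list called between these populations, where 5.29% of all genes were called higher. NAMPT, the main salvage enzyme, had a log2 fold change of -1.32 in TalaR-M cells (adjusted p = 0.062) and -0.72 without replicate 2, and was not called. NMNAT1, the nuclear form, was called without this library (1.09, adjusted p = 0.000221) and not with it (0.82, adjusted p = 0.0542). The median of the tested genes was 0.44 with drug, or 0.14 without TalaR-M replicate 2, and 0.17 after withdrawal.

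Genes of tryptophan uptake and of its other uses moved in both directions. Of 11 genes, 7 were tested, and 1 rose and 1 fell in TalaR-M cells, while 3 rose and 1 fell in TalaR-DF cells. Over all genes, 5.53% were called higher and 7.72% lower in TalaR-M cells, and 2.25% and 7.49% in TalaR-DF cells. SLC7A8, a transporter of neutral amino acids, had 3.92 ± 0.08 log2 CPM in parental cells, 0 in all 3 TalaR-M libraries and 0.96 ± 0.44 in TalaR-DF cells. Its log2 fold changes were -3.92 (adjusted p = 5e-06), a lower bound, and -2.97 (adjusted p = 3.26e-05). SLC16A10, a transporter of aromatic amino acids, stood at 0.03 ± 0.05 in parental, 1.25 ± 0.26 in TalaR-M and 2.31 ± 0.02 in TalaR-DF cells. It rose by 1.22 (adjusted p = 0.000574) and 2.28 (adjusted p = 1.96e-05), both lower bounds.

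SLC7A5 and SLC3A2 encode the chains of the large neutral amino acid transporter. In TalaR-DF cells the log2 level of SLC7A5 rose by 1.22 (adjusted p = 0.013) and SLC3A2 by 1.04 (adjusted p = 0.00481). With drug, in TalaR-M cells, their log2 fold changes were 0.18 (adjusted p = 0.619) and 0.91 (adjusted p = 0.00783), and neither was called. Of all genes, 1.64% were called lower in TalaR-M than in TalaR-DF cells. SLC7A5 and SLC16A10 were among them (-1.03, adjusted p = 0.0377, and -1.06, adjusted p = 0.0026). Without TalaR-M replicate 2 these differences were -0.70 and -0.91, under the 2-fold threshold. The median of the list was 0.13 with drug, or 0.31 without this library, and 0.38 after withdrawal.

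Among partners of AHR and further genes under its control, 11 of 12 were tested, and 3 rose and 1 fell in TalaR-M cells, while 1 rose in TalaR-DF cells. The shares over all genes were 5.53% higher and 7.72% lower in TalaR-M cells, and 2.25% higher in TalaR-DF cells. ALDH3A1, an aldehyde dehydrogenase, was at 0 in all parental libraries and had 3.38 ± 0.41 log2 CPM in TalaR-M and 0.74 ± 0.18 in TalaR-DF cells. The rise in TalaR-M cells was at least 3.38 on the log2 scale (adjusted p = 1.2e-05), and TalaR-M cells were 2.63 above TalaR-DF cells (adjusted p = 0.000162). ARNT2, a partner of the same family as ARNT, rose by 2.80 in TalaR-M cells (adjusted p = 0.000888) and was 2.00 higher there than in TalaR-DF cells (adjusted p = 0.00974). ALDH3A1 and ARNT2 were the 2 genes of the list called between TalaR-M and TalaR-DF cells, where 5.29% of all genes were called higher. NQO1, a quinone reductase that NRF2 controls as well, rose by 1.49 in TalaR-M cells (adjusted p = 0.00343). ARNT fell by 1.57 (adjusted p = 0.0283), and its difference of -0.999 without replicate 2 was just short of a call. The 1 gene called in TalaR-DF cells was HSP90AA1, a chaperone that holds the unbound receptor, at 1.00 (adjusted p = 0.00843).

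The classical AHR targets CYP1A1 and TIPARP were not called. CYP1A1, the most used readout of the receptor, had log2 fold changes of -0.92 in TalaR-M cells (adjusted p = 0.088), -0.51 without replicate 2, and 0.26 in TalaR-DF cells (adjusted p = 0.709), and CYP1A2 was at 0 in all 9 libraries. TIPARP had log2 fold changes of 0.61 (adjusted p = 0.285) and 1.04 (adjusted p = 0.118), whereas without TalaR-M replicate 2 it was called in both, at 1.15 (adjusted p = 1.52e-07) and 1.04 (adjusted p = 1.43e-07). The list's median was 0.19 in TalaR-M cells, turned to -0.30 without replicate 2, and was 0.26 in TalaR-DF cells.

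**Figure D3:**
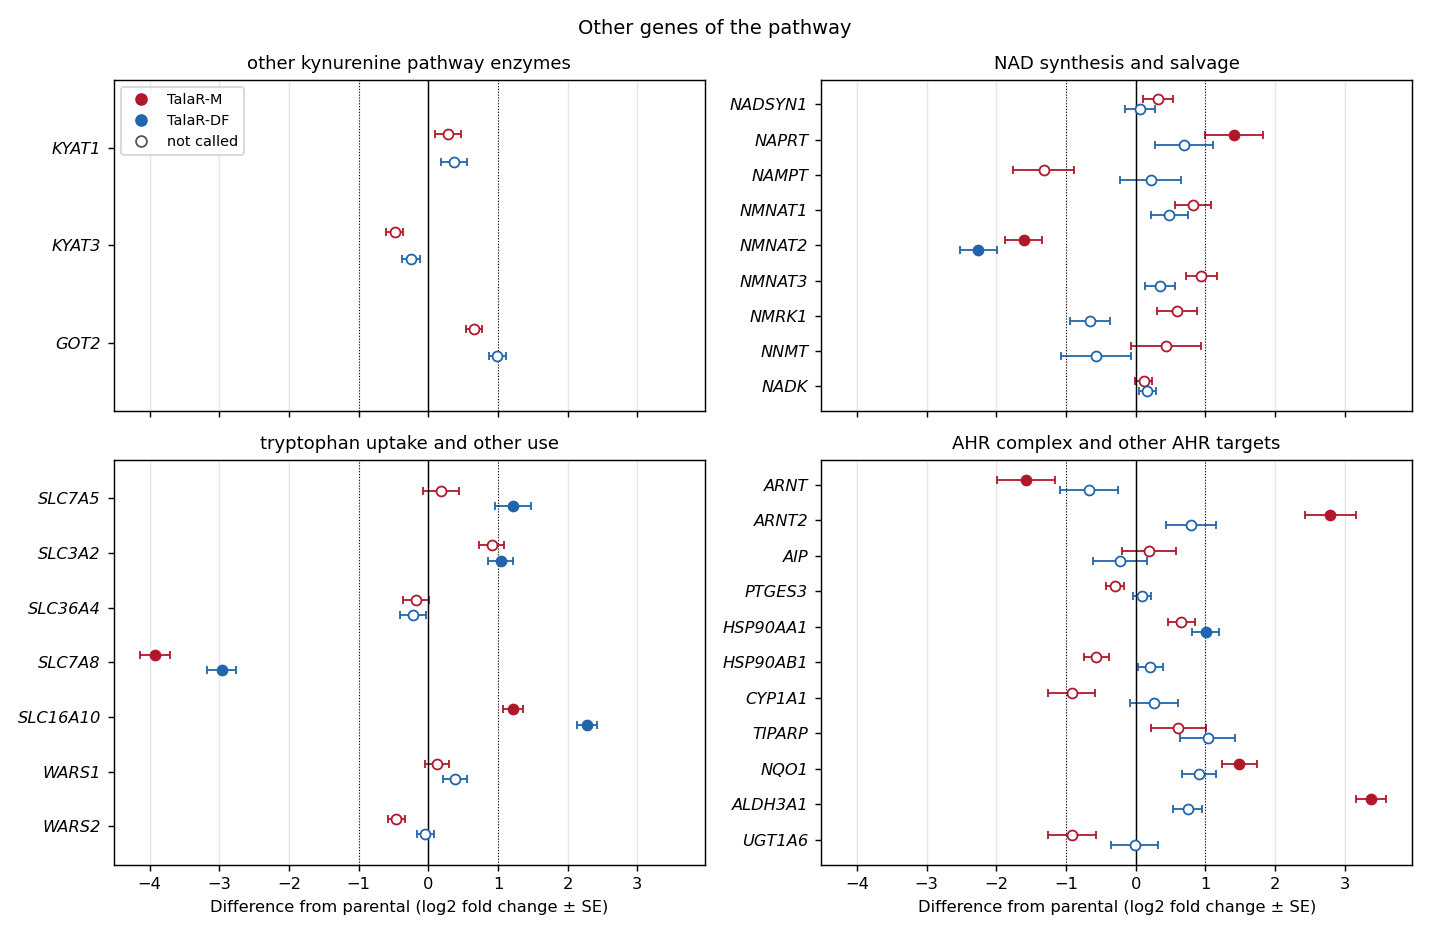
Log2 fold change against parental cells (horizontal axis, ± SE from limma) of the tested genes in 4 lists around the pathway, in TalaR-M (red) and TalaR-DF (blue) cells, filled where called and open where not, with dotted lines at a 2-fold change. SLC7A8 and NMNAT2 are lower in both populations, SLC16A10 is higher in both, and ALDH3A1 and ARNT2 are furthest to the right in TalaR-M cells.

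Leukocytes use the kynurenine pathway as well, and their markers were counted beside these results. Of 7 markers, 3 were tested, and CD14 was called lower in both resistant populations, from 3.72 ± 0.22 log2 CPM in parental cells. CSF1R was at 1.75 ± 0.11 in parental cells and at 0 in all 6 resistant libraries. The defining marker PTPRC went the other way, at 0 in all parental libraries and at 1.79, 0 and 0.83 in TalaR-M cells. PTPRC was not called (0.87, adjusted p = 0.126), and it passed the filter only with a TalaR-DF library at 0.05 log2 CPM. Without TalaR-M replicate 2, the TalaR-M library at 0, the difference was 1.31, which rests on 2 low libraries and is a description. CD68, LYZ, ITGAM and CD3E were at 0 in all 9. The summed level of the list was 14.8 to 17.96 CPM in parental, 4.14 to 7.11 in TalaR-M and 1.18 to 2.55 in TalaR-DF cells. Of 6 fibroblast and endothelial markers, 5 were tested. In TalaR-M cells COL1A1 was called higher (1.97) and COL1A2, LUM and PECAM1 lower, while in TalaR-DF cells all 4 were called lower. Of all genes, 5.53% were called higher and 7.72% lower in TalaR-M cells, and 2.25% and 7.49% in TalaR-DF cells. COL1A2 stood at 7.86 log2 CPM in parental cells, 0 in all TalaR-M libraries and 3.77 in TalaR-DF cells. DCN, at 1.55 in TalaR-M cells and 0 elsewhere, passed the filter through TalaR-M cells alone and is a description with no test. The summed CPM of the 6 was 371 to 381 for parental, 290.1 to 418 for TalaR-M and 41.1 to 43.2 for TalaR-DF cells. The part of such changes in the results was not tested. In bulk RNA, fewer cells that express a gene and less RNA of it per cell cannot be told apart.

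The genes around KYNU, TDO2 and QPRT were read from RefSeq positions, within a gap of 1000 kb on either side. KYNU has 3 such neighbours in the table. LRP1B, a large receptor of the LDL receptor family which lies before KYNU with a gap of -746.648 kb, was at 3.34 log2 CPM in parental cells and at 0 in all 6 resistant libraries, a description with no test, since it passed the filter through the parental libraries alone. GTDC1, 882.235 kb after KYNU, differed by -0.11 and 0.09 (adjusted p = 0.703 and 0.843). ARHGAP15, the nearest at 73.586 kb, was at 0 in all 9 libraries.

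TDO2 has 7 neighbours in the table, of which 4 were tested. CTSO, the gene of a cathepsin that begins 3.712 kb after TDO2, had log2 fold changes of -0.998 in TalaR-M cells (adjusted p = 0.0842), -0.52 without replicate 2, and -2.22 in TalaR-DF cells (adjusted p = 0.00371), the latter called lower. MAP9 and PDGFC, further away, lay between -0.05 and 0.36, and GUCY1A3, at 0 in the other groups, was at 0.93 log2 CPM in TalaR-DF cells. Around QPRT, 45 of 61 neighbours were tested, and their median was -0.0007 for TalaR-M and -0.19 for TalaR-DF cells. FAM57B and ZNF785 were lower in both populations, and MVP and YPEL3 were called lower in TalaR-DF cells. That is 2 and 4 of the 45, beside 7.72% and 7.49% of all genes called lower. QPRT at -3.82 and -2.74 lay below all 45 tested neighbours, whose lowest values were -1.85 and -2.15. The 16 tested neighbours of AHRR had medians of 0.49 and -0.16. TPPP (2.53, and 2.71 without replicate 2) and NKD2 (2.88, and 2.53) were called higher in TalaR-M cells, as were 5.53% of all genes. ZDHHC11B was at 1.22 log2 CPM there and at 0 in the other groups. It is a description with no test, since it passed the filter through the TalaR-M libraries alone. In TalaR-DF cells, where AHRR was 2.06 higher, 0 of the 16 were called, against 9.73% of all genes.

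**Figure D4:**
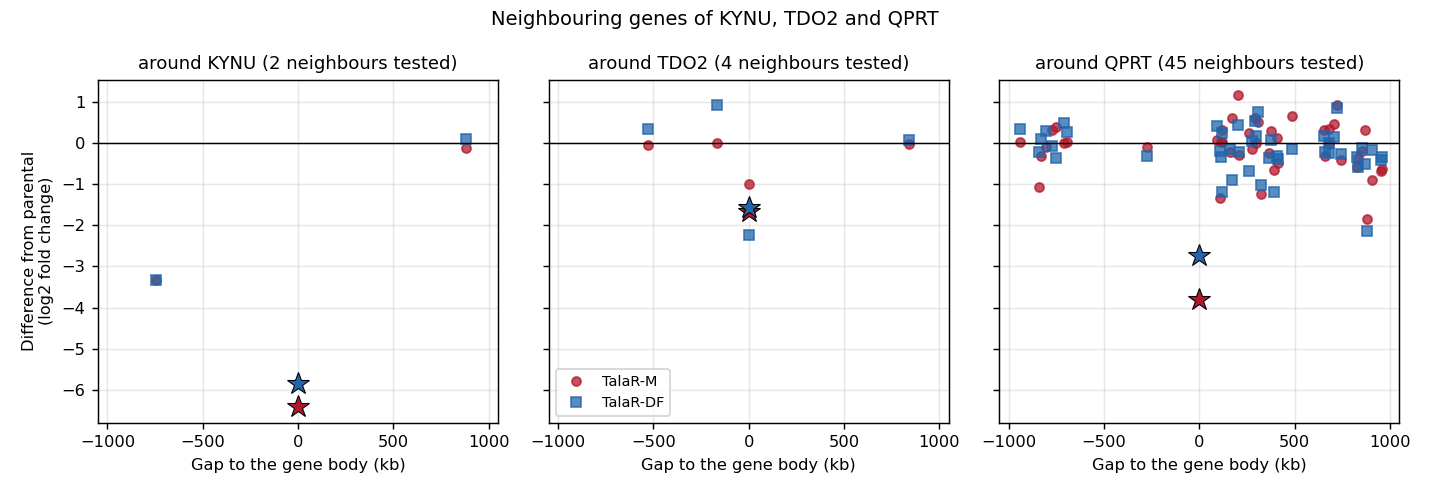
Log2 fold change against parental cells (vertical axis) of the tested genes within 1000 kb of KYNU, TDO2 and QPRT, by the gap in kb to the gene (horizontal axis), in TalaR-M (red circles) and TalaR-DF (blue squares) cells, with stars for KYNU, TDO2 and QPRT themselves. LRP1B at -3.34 is low on 1 side of KYNU, CTSO lies beside TDO2, and QPRT lies below its 45 tested neighbours.

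The pattern of KYNU over the libraries was shared most closely by DACH1 (Pearson r = 0.999), CD177 (0.999), GPR132 (0.996), EPHA3 (0.996) and SLC38A3 (0.995), among 775 genes whose group means spanned at least 2 log2 units. The 9 libraries fall into groups, so that r describes likeness and carries no p. These genes lie on chromosomes 13, 19, 14 and 3. CD177, a surface protein known from neutrophils, had 5.76 ± 0.004 log2 CPM in parental cells, was at 0 in all TalaR-M libraries and had 0.45 ± 0.28 in TalaR-DF cells. EPHA3, an ephrin receptor, was at 4.93 ± 0.02, 0.03 ± 0.06 and 0.71 ± 0.59. Over the 8 libraries without TalaR-M replicate 2, DACH1, GPR132 and CD177 again led, followed by JAG1 (0.998) and GPCPD1 (0.997). Over all 9 libraries, QPRT came at rank 110 with r = 0.977, and AHRR near the opposite end at rank 765 with r = -0.965.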

How the data were processed

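Of the 48 samples, the 9 RNAseq libraries of PSN1 cells in the parental, TalaR-M and TalaR-DF groups were used, and the other 39 were not analysed here. The libraries were stranded and made from poly(A) RNA. The authors deposited log2 values per protein coding gene: the log2 of the CPM, over a scaled library size and after a small count proportional to depth (1 on average) was added, with values under 0 set to 0. This was read from the values, as 100% of those under 50 CPM gave whole reads within 0.01. The submitters' processing notes name hg38. The aligner, counter and annotation are not given in the sources used here.

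The genes that exceeded 1 CPM in 3 or more libraries were compared in 1 fit of the 3 groups with limma 3.58.1 (R 4.3.3) and a mean-variance trend. A gene was called at a Benjamini-Hochberg adjusted p under 0.05 over 12471 genes and at least a 2-fold change. No pseudocount was added, so fold changes are on a scale that holds the prior count and understate the change of low genes. A fold against libraries at 0 is a lower bound at 1 CPM. No p is given for KYNU, TDO2, LRP1B, CSF1R, DCN, GUCY1A3 or ZDHHC11B, which the choice or the filter made differ.

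The members, lists and most settings were chosen with earlier results of these data known. The text names all 10 members, in each list the called gene with the largest change and any others where few were called, and the 5 genes with the highest Pearson r with KYNU, over 9 libraries and over 8 without TalaR-M replicate 2. Genes that missed a call, such as NAMPT, NMNAT1 and TIPARP, and the neighbours were named after their values were seen. Positions, neighbours and promoters were from RefSeq (GRCh38.p14), in which promoters of 8 of the 10 members were matched, and transcript lengths from GENCODE 44, which matched 88.3% of the genes. There were 18 alternatives: pseudocounts of 1 and 8 CPM, no filter, a minimum of 5 CPM, median ratio scaling, no trend, a replicate block, array weights, only the 2 groups compared, and leaving out each of 9 libraries. The fit was tested on simulated counts in which no library deviated as TalaR-M replicate 2 does. That test therefore does not cover the effect of this library. The result of 1 further gene list is not reported here. Python 3.11.15 with matplotlib 3.10.9 drew the figures.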

Additional observations from a re-analysis of the deposited data

How the results depend on the processing

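KYNU and TDO2 are part of the counts that follow. Their differences from parental cells were fixed by the choice or the filter, so their steadiness is no result. Over 17 alternatives for TDO2 and 18 for each of the other tested members, 358 differences kept their direction and their side of the threshold, 8 lost a call, 3 gained one and 6 turned in sign. All 6 lay between TalaR-M and TalaR-DF cells and none was called: AHR was 0.034 with array weights and ran from -1.08 to 0.059 when a library was left out, AHRR from -0.043 to 0.398 and CYP1B1 from -0.21 to 0.958. The changed signs of AHRR (-0.043 and -0.025) and CYP1B1 (-0.21 and -0.080) came without TalaR-M replicate 1 and 3, and that of AHR (0.059) without replicate 2. A pseudocount of 8 CPM took AHRR to 0.99 in TalaR-M and 0.91 in TalaR-DF cells, TDO2 to -0.49 and -0.42, and QPRT between the resistant populations to -0.23. CYP1B1 in TalaR-DF cells was called with array weights (-1.26), in a fit of only the 2 groups and without TalaR-M replicate 2 (-1.27 in both). The counts of called genes, 1653 for TalaR-M and 1214 for TalaR-DF against parental cells and 864 between the resistant populations, were 711, 426 and 272 with a pseudocount of 8 CPM, and the last was 484 in a fit of only the 2 groups. Leaving out 1 library gave 1298 to 2045, 983 to 1417 and 578 to 1043. Median ratio scaling moved the median of all genes from -0.09 to 0.01 for TalaR-M against parental cells and from -0.09 to 0.03 between the resistant populations. With a replicate block the counts were 1546, 1132 and 750, and no call on a member changed. The replicate numbers did not pair the libraries, as same-number deviations correlated at -0.31 to 0.16 over 9 pairs and others at -0.40 to 0.37 over 18. A minimum of 5 CPM left no value for TDO2. The cause of these shifts was not tested. At these depths RNA under 1 CPM cannot be told from 0, which limits IDO1, KMO, HAAO, TDO2 and the residual KYNU.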

Other observations

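Genes upstream of IDO1 were counted as a further list. Of 12 inducers and regulators of IDO1, 10 were tested, and PTGS2, the gene of cyclooxygenase, fell by 2.46 (log2) in TalaR-M cells (limma, adjusted p = 0.00425), a difference of -1.87 without replicate 2, while in TalaR-DF cells PTGS2 fell by 1.56 (adjusted p = 0.0381). PTGS2 was at 7.91 ± 0.03 log2 CPM in parental cells (SD, n = 3). Over all genes, 7.72% were called lower in TalaR-M and 7.49% in TalaR-DF cells. The cytokine IL6 was at 1.16 ± 0.11 log2 CPM in TalaR-M cells and at 0 in all TalaR-DF libraries, a difference of at least 1.16. IRF1, an interferon-induced activator of IDO1, differed by -0.66 in TalaR-DF cells (adjusted p = 0.00705), short of 2-fold, and by 0.21 in TalaR-M cells (adjusted p = 0.252). TNF and IRF8 were at 0 in all 9 libraries. The median of the tested genes was -0.07 in TalaR-M cells, or 0.10 without replicate 2, and -0.30 in TalaR-DF cells. Of 9 epithelial and pancreatic cancer markers, 8 were tested. In TalaR-M cells 2 were called higher and 0 lower, beside 5.53% and 7.72% of all genes. EPCAM rose by 1.20 (adjusted p = 0.000248) and KRT19 by 2.62 (adjusted p = 0.00233), or 2.07 without replicate 2. SOX9 went the other way (-0.93, adjusted p = 0.0353), short of 2-fold. In TalaR-DF cells 0 were called higher and 2 lower, beside 2.25% and 7.49% of all genes. KRT7 fell by 1.23 (adjusted p = 0.0426) and MUC1 by 1.64 (adjusted p = 0.018). The median of the tested markers was 0.85 in TalaR-M cells, or 0.23 without replicate 2, and -0.14 in TalaR-DF cells.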
